A study of Mus musculus with 10 samples.

Results

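The genes described here are 45 interferon-stimulated genes, taken by symbol from a list of known interferon targets out of 56748 genes in the expression table. They fall into 3 classes: 4 regulators, which are transcription factors of the interferon response, 29 type I effectors, which are genes known as targets of interferon alpha and beta, and 12 gamma-induced GTPases of the immunity-related and guanylate-binding families. RNA was sequenced from 10 mouse liver samples. Normal liver came from wild-type FVB mice, 4 samples in all. The other samples were 3 Akt/Nras and 3 Akt/Nras/Foxo1AAA hepatocellular carcinomas in mice whose own genotype is labelled wild type, raised by hydrodynamic tail vein injection, a rapid injection that drives plasmid DNA into hepatocytes. Both tumour groups therefore carry Akt and Nras, and the second also carries Foxo1AAA, a FOXO1 protein that AKT can no longer phosphorylate at its usual sites. The labels give no age, no sex, no time after injection, no promoter for the injected genes and no dose, and do not say whether the normal livers were injected. Nothing in the labels says that the samples of a group came from separate mice, so the p-values speak only of the spread among these libraries, which may in part be technical.

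Interferons are secreted proteins that switch on antiviral and antimicrobial genes in the cells that bind them. Type I interferons act through the receptor IFNAR and the complex ISGF3, which includes STAT2 and IRF9 and binds the interferon-stimulated response element (ISRE), whereas interferon gamma acts through IFNGR and the gamma-activated site (GAS). Hepatocytes and Kupffer cells, the resident macrophages of the liver, both respond, and several of these genes, such as Ifitm3 and Bst2, are abundant in liver without infection.

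The promoters show what the classes share in sequence. The genes were chosen by symbol and not by promoter sequence. They are known interferon targets, however, so the share holding interferon elements is a description and not independent of that choice. Of the 45 genes, 34 had a promoter in the RefSeq table for GRCm38.p6, defined as 250 bases before the transcript start and 50 after it. No promoter was matched for Oas2, Mx1, Mx2, Usp18, Ifi27, Dhx58, Zbp1, Parp14, Rtp4, Iigp1 and Gbp6. The ISRE core was searched as GAAANNGAAA on either strand, its reverse complement reading TTTCNNTTTC, and the GAS core as TTCNNNGAA, which reads the same on both strands. The 2 patterns may overlap, as they do in Bst2. The stretches below hold these cores in capitals and 6 flanking bases in lower case where the promoter allows. They are written 5′ to 3′ on the strand of the gene. They are a selection from promoters with a match, some being near-identical copies, and not a ranking by size of difference.
Isg15: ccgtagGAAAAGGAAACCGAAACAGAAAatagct
Ifit3: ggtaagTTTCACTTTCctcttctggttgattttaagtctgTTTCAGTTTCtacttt
Ifit3b: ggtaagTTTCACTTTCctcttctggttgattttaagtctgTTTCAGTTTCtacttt
Oas1a: tctcggGAAATGGAAACTGAAAatct
Oas1g: tctcggGAAATGGAAACTGAAAat
Igtp: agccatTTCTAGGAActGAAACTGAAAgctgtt
Irgm2: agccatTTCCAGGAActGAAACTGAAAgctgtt
Tgtp1: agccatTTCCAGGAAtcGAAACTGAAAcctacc
Tgtp2: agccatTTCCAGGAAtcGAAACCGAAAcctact
Irgm1: tttcaaGAAATAGAAACCGAAActgatt
Gbp2: ttttagTTTCACTTTCactgtc
All of these lie upstream of the transcript start, in no exon of their own RefSeq transcript. On GRCm38.p6 they are at chr4:156200869-156200902 (minus strand), chr19:34583367-34583422 and chr19:34607763-34607818 (plus), chr5:120907526-120907551 and chr5:120887614-120887637 (minus), chr11:58199505-58199537 and chr11:58214896-58214928 (plus), chr11:48992308-48992340, chr11:49064267-49064299 and chr11:48871429-48871456 (minus), and chr3:142620598-142620619 (plus), in the order Isg15, Ifit3, Ifit3b, Oas1a, Oas1g, Igtp, Irgm2, Tgtp1, Tgtp2, Irgm1, Gbp2.

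The ISRE core was in 22 of the 34 promoters, which is 64.7%, against 3.99% of the 27025 genes of the promoter table and 3.56% of the 9007 genes that were both tested for expression and matched there. By class it was in 9 of 10 gamma-induced GTPases, 12 of 20 type I effectors and 1 of 4 regulators, Stat2. The GAS core was in 12 of 34, or 35.3%, against 9.55% of all genes, and 6 of those 12 were gamma-induced GTPases. Both cores stood in 9 of 34 promoters (26.5%) against 0.54% of all genes. A narrower arrangement, a GAS ending exactly 2 bases before an ISRE, occurred in 5 of the 27025 genes, and 4 of these are Igtp, Irgm2, Tgtp1 and Tgtp2, with Gm12185 as the other. Their printed stretches of 33 bases differ from that of Igtp at 1 base in Irgm2 and at 7 bases each in Tgtp1 and Tgtp2. The Ifit3 and Ifit3b stretches are identical. In Ifih1 and Ifi35 the matches lay after the start, as did all of those in Ifitm3. A match is a run of letters and not a measured binding site.

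**Figure D1:**
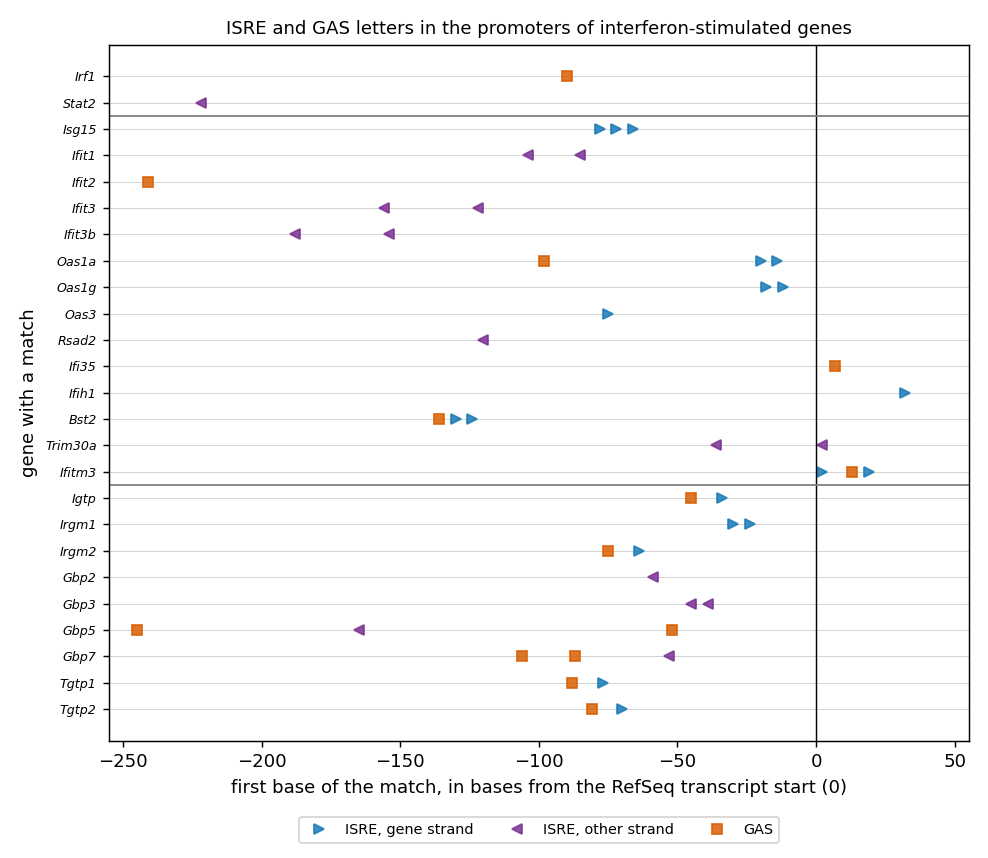
Position of each ISRE core (triangles, pointing with the strand) and GAS core (squares) in the promoters of the 25 interferon-stimulated genes with a match, in bases from the RefSeq transcript start (x axis), 1 gene per row, with lines between regulators, type I effectors and gamma-induced GTPases. The GTPase promoters hold most of the GAS and ISRE pairs, and most matches lie before the start.

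Whole reads behind the values numbered 13.6 to 21.3 M per library. Levels are FPKM, the fragments of a gene per kilobase of its length and per unit of library size. The library size implied by the authors' values was not the total of these reads, and its share of that total differed by group. It was 0.629 to 0.668 of the reads in normal livers and 1 to 1.06 in Akt/Nras tumours. In Akt/Nras/Foxo1AAA tumours it was 0.875 to 0.928. The authors' FPKM totals ran from 692010 to 743203 per normal liver, but only from 349619 to 381653 per Akt/Nras tumour and from 413812 to 444893 with Foxo1AAA. Rescaling every library to the same total moved the median log2 change over all 12439 tested genes. Relative to normal liver it went from -0.07 to 0.70 in Akt/Nras and from -0.09 to 0.46 in Akt/Nras/Foxo1AAA tumours, and in the comparison of tumours from -0.01 to -0.21. Calls over all genes moved from 3871 higher and 4716 lower to 8608 and 1713, from 3330 and 4544 to 7580 and 1681, and from 986 and 514 to 656 and 3241 in the same 3 comparisons. Hepatocyte markers summed to 67166 to 71355 FPKM per normal liver, to 24302 to 26924 per Akt/Nras tumour and to 28977 to 40772 per Akt/Nras/Foxo1AAA tumour, so the labelled tissue carried its defining genes. In such bulk samples fewer cells of a type and less RNA per cell cannot be told apart. T and NK cell markers summed to 2.61 to 4.15 FPKM per normal liver and 0.807 to 2.14 per Akt/Nras tumour. In Akt/Nras/Foxo1AAA tumours they summed to 2.19 to 3.60. B cell markers summed to at most 1.68 and plasmacytoid dendritic cell markers to at most 0.944 FPKM in any library. No marker of these lists was at 0 in every library, and none had enough expression to test.

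Most tested interferon-stimulated genes were higher in Akt/Nras/Foxo1AAA tumours than in Akt/Nras tumours. Of 38 genes with enough expression to test, 25 rose and 0 fell, which is 65.8% higher, where 7.93% of all tested genes were called higher and 4.13% lower. A gene was called when limma's Benjamini-Hochberg adjusted p over all tested genes was under 0.05. Testing required at least 1 FPKM in 3 or more libraries. Ifi44 and Oasl2 reached 1 FPKM only in the Akt/Nras/Foxo1AAA tumours, so their higher calls there are not independent of that minimum. The 38 log2 changes ran from 0.10 to 1.10 with a median of 0.66, where the median over all tested genes was -0.01, and with equal totals 36 of the 38 stayed positive, Ifit2 and Lgals3bp being the exceptions. By class, 18 of 26 type I effectors, 5 of 8 gamma-induced GTPases and 2 of 4 regulators rose. In 30 of the 38 genes every Akt/Nras/Foxo1AAA library was above every Akt/Nras library, as in 16.4% of all tested genes. At an unadjusted p under 0.05 limma gave 33 higher and 0 lower, where 1979 and 1627 of all 12439 tested genes were. With equal totals 21 of the 38 were called higher, where 5.27% of all tested genes were, and the calls of Irf9, Usp18, Ifi35 and Ifitm3 were lost.

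This count was taken with 1 estimate of spread shared with the normal livers. Fitted on the 6 tumour libraries alone, limma called 0 of the 38 genes, with 31 higher and 0 lower at an unadjusted p under 0.05 and adjusted p from 0.0522 to 0.143 for the 25, and it called 5 genes higher of all 12439 (0.0402%). At the unadjusted threshold that fit gave 1713 higher and 1394 lower of all 12439. The number called higher by limma was 12 without Akt/Nras replicate 1, where 612 of all 12439 tested genes were. It was 9 without Akt/Nras/Foxo1AAA replicate 1 (402 of all tested genes) and 8 without Akt/Nras/Foxo1AAA replicate 2 (451 of all). For the type I effectors it was 7 and 10 without Akt/Nras replicate 1 and 2, and 5 and 3 without Akt/Nras/Foxo1AAA replicate 1 and 2, and for the GTPases it was 3 without Akt/Nras/Foxo1AAA replicate 1. The 7 genes called in each of the 6 fits that left out 1 tumour library were Irf7, Ifi27, Zbp1, Parp14, Iigp1, Irgm1 and Irgm2.

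Against normal liver the count of calls differed by tumour group and by class. In Akt/Nras tumours 11 genes were called higher and 14 lower, or 28.9% and 36.8%, where 31.1% and 37.9% of all tested genes were (69% in either direction), so that the counts lay near the background. The 11 higher calls were all type I effectors, and the gamma-induced GTPases had 6 lower and 0 higher of 8, or 2 lower and 1 higher with equal totals. At limma's unadjusted p under 0.05, 0 of these GTPases were higher as well, where 4016 of all 12439 tested genes were. Of the 11 effectors, Ifit2, Oas1a, Oas1g, Oasl2, Rsad2, Ifi44, Trim30a and Cmpk2 were under 1 FPKM in every normal liver. These genes passed the minimum only through tumour libraries. Their calls above normal liver, in either tumour group, are therefore not independent of that minimum. In Akt/Nras/Foxo1AAA tumours 21 genes were called higher and 5 lower, or 55.3% and 13.2%, against 26.8% and 36.5% of all tested genes (63.3% in either direction). Of those 21, 18 were type I effectors, 2 were GTPases and 1 was a regulator. Both comparisons share the same 4 normal livers, and with equal totals the lower calls dropped to 3 in Akt/Nras and 0 in Akt/Nras/Foxo1AAA tumours, so most calls below normal liver depend on the authors' scaling. The 3 that stayed were Mx2, Igtp and Irgm2. Whether the classes differ from each other was not tested.

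**Figure D2:**
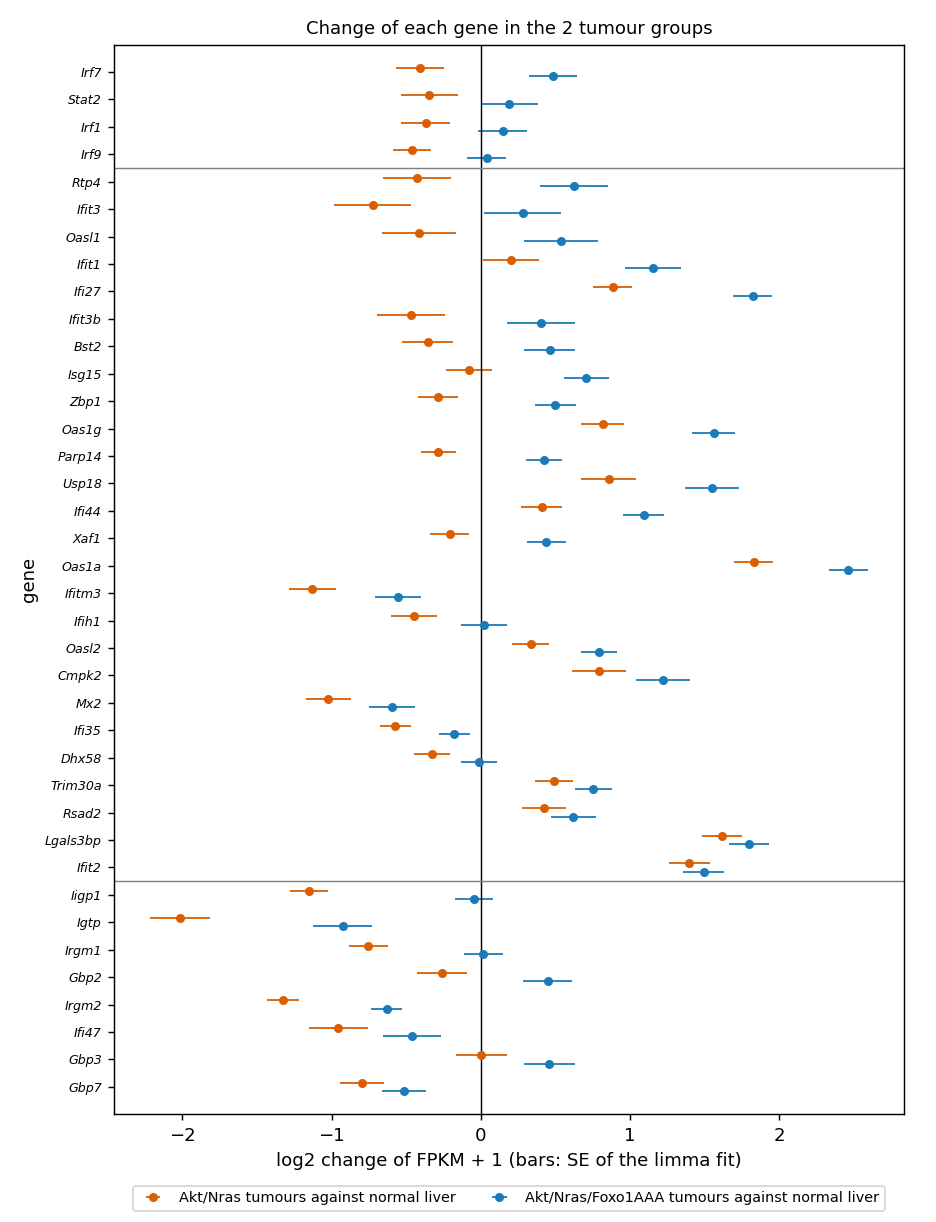
Log2 change of FPKM + 1 against normal liver (x axis, with the standard error of the limma fit) for each of the 38 tested genes (rows), in Akt/Nras tumours (orange) and Akt/Nras/Foxo1AAA tumours (blue), with lines between regulators, type I effectors and GTPases. Each blue point lies to the right of its orange point, by 0.10 to 1.10, and with equal totals this holds for 36 of the 38 genes.

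Libraries of a group did not stand equally. On the log2 scale relative to the normal liver mean, the median of the 38 genes was 0.521, 0.627 and 0.158 in the Akt/Nras/Foxo1AAA tumours and -0.413, -0.211 and -0.174 in the Akt/Nras tumours. The third Akt/Nras/Foxo1AAA library was the lowest of its group in 36 of 38 genes, the first Akt/Nras library the lowest in 22 and the third normal liver the lowest in 22. Over the 8 GTPases the medians were -1.165, -0.872 and -0.649 in Akt/Nras tumours and -0.084, -0.189 and -0.412 in Akt/Nras/Foxo1AAA tumours.

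As a sum, Kupffer cell markers were higher in each Akt/Nras/Foxo1AAA library than in each Akt/Nras library. The summed level of the 6 markers was 122, 89.1, 75.5 and 135 FPKM in the normal livers, 29.8, 54.7 and 86.6 in the Akt/Nras tumours and 130, 109 and 95.5 in the Akt/Nras/Foxo1AAA tumours. The lowest library in each group was also the one in which most interferon-stimulated genes were lowest. That match was not particular to the Kupffer cell markers. The B cell markers, though low, had their lowest sums in the same libraries (0.378, 0.729 and 1.16 FPKM). Hepatocyte markers did so in normal liver and Akt/Nras/Foxo1AAA tumours but not in Akt/Nras tumours. Cd5l, a macrophage-secreted protein, rose between the tumour groups (1.32 ± 0.36, adjusted p = 0.0427). It was 1 of 6 Kupffer cell markers called higher, where 7.93% of all tested genes were. No Kupffer cell marker was at 0 in every library. All 6 log2 differences between tumours were positive, 3 of them without overlap of the groups, where 16.4% of all tested genes were higher without overlap. Against normal liver Adgre1 was called higher in both tumour groups (0.65 and 0.84, adjusted p = 0.0163 and 0.00443). In Akt/Nras tumours 3 of the 6 were called lower than normal liver, where 37.9% of all tested genes were. With equal totals 0 of the 6 were called lower, where 1713 of all 12439 tested genes were. Clec4f, the C-type lectin that marks Kupffer cells, was at 56.6, 45.8, 37.3 and 65.7 FPKM in normal liver, 10.7, 22.3 and 35.2 in Akt/Nras and 53.4, 45.1 and 38.9 in Akt/Nras/Foxo1AAA tumours, with no call between tumours (adjusted p = 0.0651). Hepatocyte markers were also higher in Akt/Nras/Foxo1AAA than in Akt/Nras tumours, with 5 of 8 called (3 with equal totals). Over all tested genes 7.93% were called higher there (5.27% with equal totals) and 4.13% lower. Cholangiocyte markers were lower there, with 3 of 4 tested called (Krt19 by -2.47, Epcam by -1.57 and Cldn7 by -1.80 on the log2 scale), and so were 2 of 6 stellate cell markers, the collagens Col1a1 (-0.53) and Col3a1 (-0.60). The summed level of the 5 cholangiocyte markers was 2.37 to 4.11 FPKM in normal liver, 72.3 to 107 in Akt/Nras and 37.2 to 44.6 in Akt/Nras/Foxo1AAA tumours. Of 6 tested monocyte and macrophage markers, 6 were higher than normal liver in both tumour groups and limma called 0 between them, with 1 higher and 0 lower at an unadjusted p under 0.05. Over all tested genes 31.1% and 26.8% were called higher than normal liver in Akt/Nras and Akt/Nras/Foxo1AAA tumours. Between the tumours 12.1% were called in either direction. The part of these cells in the differences was not tested.

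Among the regulators, Irf7 and Irf9 rose between the tumour groups. Irf7 encodes the transcription factor that amplifies type I interferon production. Irf7 read 7.62, 6.76, 5.7 and 7.57 FPKM in the normal livers, 5.57, 4.05 and 5.31 in the Akt/Nras tumours and 11.6, 11.6 and 7.43 in the Akt/Nras/Foxo1AAA tumours. The Akt/Nras libraries were all below the other groups, 2 of the Akt/Nras/Foxo1AAA libraries were the highest of all, and the remaining one lay inside the normal range. Irf7 was higher in Akt/Nras/Foxo1AAA than in Akt/Nras tumours by 0.89 ± 0.17 on the log2 scale (SE; adjusted p = 0.0113), a ratio of means of 2.05. It was the 1 gene of the 38 called in opposite directions against normal liver, at -0.41 in Akt/Nras (adjusted p = 0.0428) and 0.48 in Akt/Nras/Foxo1AAA tumours (adjusted p = 0.0221). The first of these values turned to 0.42 with equal totals.

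Irf9 is the DNA-binding subunit of ISGF3. Irf9 was at 6.53, 5.34, 5.47 and 5.86 FPKM in normal liver, at 3.14, 4.5 and 4.29 in Akt/Nras tumours and at 7.04, 6.03 and 4.99 in Akt/Nras/Foxo1AAA tumours. Every Akt/Nras library was below every library of the other groups, while the normal livers and Akt/Nras/Foxo1AAA tumours overlapped. The difference between tumour groups was 0.50 ± 0.14 (adjusted p = 0.042), and that from normal liver to Akt/Nras tumours -0.46 ± 0.13 (adjusted p = 0.00849), which turned to 0.34 with equal totals. The Irf1 levels were 7.5, 9.23, 6.28 and 8.17 FPKM in normal liver, 4.48, 6.51 and 6.48 in Akt/Nras and 9.85, 9.74 and 6.76 in Akt/Nras/Foxo1AAA tumours. The Stat2 levels were 10.4, 10.5, 12.2 and 10.2 FPKM in normal liver, 5.54, 11.3 and 8.98 in Akt/Nras and 13.5, 14.2 and 10.1 in Akt/Nras/Foxo1AAA tumours. For Irf1, a transcription factor induced by both types of interferon, the tumour groups did not overlap, but the difference of 0.52 ± 0.18 was not called (adjusted p = 0.0822). Stat2, the other specific subunit of ISGF3, overlapped among all groups (difference between tumours 0.54 ± 0.20, adjusted p = 0.113), and its spread was widest in Akt/Nras tumours.

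Both Isg15 and Usp18 rose between the tumour groups. Isg15 is a ubiquitin-like protein attached to other proteins. Isg15 read 15.5, 14.3, 10.4 and 13.9 FPKM in the normal livers, 10.7, 12.9 and 14.6 in the Akt/Nras tumours and 23.4, 25.8 and 18.8 in the Akt/Nras/Foxo1AAA tumours. All Akt/Nras/Foxo1AAA libraries were above all others, and the Akt/Nras tumours lay within the range of normal liver. Isg15 was 1.78-fold higher in Akt/Nras/Foxo1AAA than in Akt/Nras tumours (log2 difference 0.79 ± 0.16, adjusted p = 0.0147). Usp18 removes ISG15 and dampens signalling at IFNAR. Usp18 was at 1.56, 1.16, 1.24 and 1.55 FPKM in normal liver, at 3.51, 2.52 and 3.97 in Akt/Nras tumours and at 8.25, 5.82 and 4.27 in Akt/Nras/Foxo1AAA tumours. The 3 groups did not overlap, with normal liver lowest, and the step between tumour groups was 0.69 ± 0.20 (adjusted p = 0.0449).

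The tested genes of the Ifit proteins, which bind foreign RNA, rose between the tumours except Ifit2. Ifit1 read 1.09, 1.38, 0.866 and 1.28 FPKM in the normal livers, 1.53, 1.38 and 1.5 in the Akt/Nras tumours and 5.58, 3.83 and 2.42 in the Akt/Nras/Foxo1AAA tumours. Ifit1 in Akt/Nras tumours overlapped normal liver, and every Akt/Nras/Foxo1AAA library was above both other groups, with a difference between tumours of 0.95 ± 0.20 (adjusted p = 0.0152). The Ifit3 levels were 6.9, 5.24, 3.47 and 7.09 FPKM in normal liver, 2.86, 2.35 and 3.68 in Akt/Nras and 8.27, 9.11 and 4.25 in Akt/Nras/Foxo1AAA tumours. For Ifit3 the Akt/Nras/Foxo1AAA libraries were above the Akt/Nras libraries (1.01 ± 0.28, adjusted p = 0.0416) and overlapped the normal livers, as did 1 Akt/Nras library. Against normal liver Ifit3 fell in Akt/Nras tumours by 0.73 on the log2 scale (adjusted p = 0.0281), which turned to 0.04 with equal totals. Ifit3b was at 1.11, 1.11, 0.261 and 1.48 FPKM in normal liver, at 0.517, 0.281 and 0.399 in Akt/Nras tumours and at 1.76, 2.04 and 0.98 in Akt/Nras/Foxo1AAA tumours. Ifit3b followed the same order at a lower level, the tumour groups differing by 0.87 ± 0.24 (adjusted p = 0.0424). Reads of this pair are uncertain, since 51.2% of the 50-base stretches of Ifit3 also occur in Ifit3b. Ifit2 was at 0.506 to 0.848 FPKM in normal liver, 3.18 to 3.65 in Akt/Nras and 2.69 to 4.48 in Akt/Nras/Foxo1AAA tumours, so that both tumour groups were above normal liver (log2 1.40 ± 0.14 and 1.49 ± 0.14, adjusted p = 5.96e-06 and 5.7e-06) and overlapped each other.

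The Oas enzymes make 2′-5′-linked oligoadenylates on double-stranded RNA and so activate the nuclease RNase L. Oas1a read 0.544, 0.65, 0.998 and 0.722 FPKM in the normal livers, 4.87, 4.48 and 6.07 in the Akt/Nras tumours and 9.56, 9.02 and 7.06 in the Akt/Nras/Foxo1AAA tumours. The groups did not overlap and rose in the order normal liver, Akt/Nras, Akt/Nras/Foxo1AAA. Against normal liver the ratio of means was 7.05 in Akt/Nras tumours and 11.7 in Akt/Nras/Foxo1AAA tumours (adjusted p = 6e-07 and 1.6e-07), and the step between tumours was 0.64 ± 0.14 (adjusted p = 0.0192). The Oas1g levels were 0.401, 0.238, 0.0893 and 0.291 FPKM in normal liver, 1.3, 1.32 and 1 in Akt/Nras and 3.37, 2.87 and 1.97 in Akt/Nras/Foxo1AAA tumours. Oas1g had the same order without overlap, with 0.74 ± 0.15 (adjusted p = 0.0149) between tumours, although 45.2% of its 50-base stretches are shared with Oas1a and 57.6% of those of Oas1a with Oas1g. Oasl1 was at 2.78, 2.01, 2.2 and 3.57 FPKM in normal liver, at 2.47, 1.08 and 1.73 in Akt/Nras tumours and at 5.98, 4.78 and 2.52 in Akt/Nras/Foxo1AAA tumours. Oasl1, an OAS-like protein, was above the Akt/Nras range in each Akt/Nras/Foxo1AAA library, by 0.95 ± 0.27 (adjusted p = 0.0437). The Oasl2 levels were 0.415, 0.332, 0.148 and 0.356 FPKM in normal liver, 0.439, 0.653 and 0.883 in Akt/Nras and 1.25, 1.33 and 1.22 in Akt/Nras/Foxo1AAA tumours. Oasl2 had no overlap between any groups (0.46 ± 0.13, adjusted p = 0.0454 between tumours). Oas2 and Oas3 were too low to test, at 0.041 to 0.641 and 0.0774 to 0.327 FPKM over all libraries, and Oas3 was higher in each Akt/Nras/Foxo1AAA library than in any other.

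Ifi27, a small interferon-induced membrane protein, had the strongest call among the type I effectors between tumours. Ifi27 read 47.2, 44.2, 49.4 and 50 FPKM in the normal livers, 88.5, 88.3 and 89.5 in the Akt/Nras tumours and 200, 189 and 132 in the Akt/Nras/Foxo1AAA tumours. The 3 groups were apart, and the Akt/Nras libraries lay close to each other while the Akt/Nras/Foxo1AAA libraries spread widely. The ratio of means was 1.86 in Akt/Nras and 3.64 in Akt/Nras/Foxo1AAA tumours against normal liver, with 0.94 ± 0.14 (adjusted p = 0.00524) between tumours. The Ifi44 levels were 0.307, 0.145, 0.239 and 0.167 FPKM in normal liver, 0.387, 0.743 and 0.727 in Akt/Nras and 1.81, 1.86 and 1.14 in Akt/Nras/Foxo1AAA tumours. Ifi44, a cytoplasmic interferon-induced protein, had no overlap among the groups either, and the tumours differed by 0.68 ± 0.15 (adjusted p = 0.0171). Ifi35 was at 22.7, 23.9, 22.6 and 26.8 FPKM in normal liver, at 14.5, 14.9 and 18.2 in Akt/Nras tumours and at 22, 22.7 and 18.8 in Akt/Nras/Foxo1AAA tumours. For Ifi35 it was the Akt/Nras group that stood apart, below both others, and the difference between tumours was 0.40 ± 0.11 (adjusted p = 0.0454).

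Zbp1, Xaf1 and Parp14 had the same order of groups. In the authors' scaling their means were below normal liver in Akt/Nras tumours, with no call, and above it in Akt/Nras/Foxo1AAA tumours. Zbp1 read 2.11, 2.05, 1.39 and 2.12 FPKM in the normal livers, 0.982, 1.61 and 1.61 in the Akt/Nras tumours and 3.06, 3.5 and 2.78 in the Akt/Nras/Foxo1AAA tumours. Zbp1, a sensor of Z-form nucleic acids that triggers cell death, was higher in every Akt/Nras/Foxo1AAA library than in any other, by 0.79 ± 0.14 (adjusted p = 0.0102) between tumours. The Xaf1 levels were 1.46, 1.16, 1.05 and 1.33 FPKM in normal liver, 0.804, 0.948 and 1.09 in Akt/Nras and 1.86, 2.74 and 1.63 in Akt/Nras/Foxo1AAA tumours. Xaf1, which binds the apoptosis inhibitor XIAP, did likewise (0.65 ± 0.14, adjusted p = 0.018). Parp14 was at 3.42, 3.57, 2.78 and 3.44 FPKM in normal liver, at 2.08, 2.79 and 2.75 in Akt/Nras tumours and at 5.22, 5.3 and 3.89 in Akt/Nras/Foxo1AAA tumours. Parp14, a mono-ADP-ribosyltransferase, differed by 0.71 ± 0.13 (adjusted p = 0.00982), again without overlap with either group. With equal totals Parp14 turned from -0.28 to 0.44 in Akt/Nras tumours against normal liver, so its place below normal liver depends on the scaling.

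Bst2 read 240, 237, 256 and 228 FPKM in the normal livers, 150, 183 and 240 in the Akt/Nras tumours and 400, 346 and 262 in the Akt/Nras/Foxo1AAA tumours. Bst2, or tetherin, holds budding viruses on the cell surface, and it was the second most abundant of these genes on the FPKM scale. Its Akt/Nras/Foxo1AAA libraries were above all others, the Akt/Nras libraries reached down from the normal range, and the tumours differed by 0.82 ± 0.18 (adjusted p = 0.0202). The Rtp4 levels were 6.77, 5.07, 3.97 and 7.88 FPKM in normal liver, 2.8, 4.3 and 5.26 in Akt/Nras and 11.1, 10.2 and 7.33 in Akt/Nras/Foxo1AAA tumours. Rtp4, a chaperone of membrane receptors, had the largest log2 difference between tumours among the type I effectors, 1.06 ± 0.24 (adjusted p = 0.0219), with no overlap between the tumours and partial overlap with normal liver. Ifitm3 was at 878, 881, 1014 and 959 FPKM in normal liver, at 383, 411 and 488 in Akt/Nras tumours and at 752, 699 and 483 in Akt/Nras/Foxo1AAA tumours. Ifitm3 blocks virus entry from endosomes and was the most abundant of the 45 genes. Both tumour groups were below every normal liver (log2 -1.13 ± 0.16 and -0.56 ± 0.16, adjusted p = 7.83e-05 and 0.00964). With equal totals the first call was lost and the second value turned to 0.17. Between tumours Ifitm3 overlapped and differed by 0.57 ± 0.17 (adjusted p = 0.0497), the call nearest to the threshold.

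Lgals3bp read 24.1, 16.9, 17.7 and 22.4 FPKM in the normal livers, 70.9, 58.8 and 61.8 in the Akt/Nras tumours and 80.4, 71 and 65.6 in the Akt/Nras/Foxo1AAA tumours. Lgals3bp, a secreted glycoprotein that binds galectin-3, was above normal liver in every tumour, 3.14-fold in Akt/Nras and 3.56-fold in Akt/Nras/Foxo1AAA tumours (adjusted p = 1.7e-06 and 1.42e-06). The tumour groups overlapped and were not called apart (0.18 ± 0.14, adjusted p = 0.454). The Mx2 levels were 2.15, 2.41, 1.74 and 2.42 FPKM in normal liver, 0.606, 0.452 and 0.624 in Akt/Nras and 1.1, 1.64 and 0.659 in Akt/Nras/Foxo1AAA tumours. Mx2, a dynamin-like antiviral GTPase, was below every normal liver in both tumour groups (log2 -1.02 ± 0.15 and -0.60 ± 0.15, adjusted p = 0.000141 and 0.00584). With equal totals the second call was lost. Mx2 was higher in each Akt/Nras/Foxo1AAA than in each Akt/Nras library without a call (adjusted p = 0.114). Mx1 was too low to test, at 0.062 to 0.498 FPKM.

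The remaining type I effectors were not called between the tumour groups. Rsad2, the antiviral enzyme viperin, and Cmpk2, a mitochondrial nucleotide kinase, were both above every normal liver in both tumour groups. Mean Rsad2 was 0.602, 1.14 and 1.48 FPKM in the normal livers, the Akt/Nras tumours and the tumours with Foxo1AAA, and mean Cmpk2 0.526, 1.62 and 2.64. Trim30a, a member of the tripartite-motif family, likewise stood at 0.537, 1.15 and 1.58. Ifih1 (MDA5) and Dhx58 (LGP2), cytoplasmic sensors of double-stranded RNA, fell in Akt/Nras tumours against normal liver in the authors' scaling, by 0.45 and 0.33 on the log2 scale (adjusted p = 0.0221 and 0.0339), and turned to 0.26 and 0.40 with equal totals. In Akt/Nras/Foxo1AAA tumours they were at 0.02 and -0.01, with no call.

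**Figure D3:**
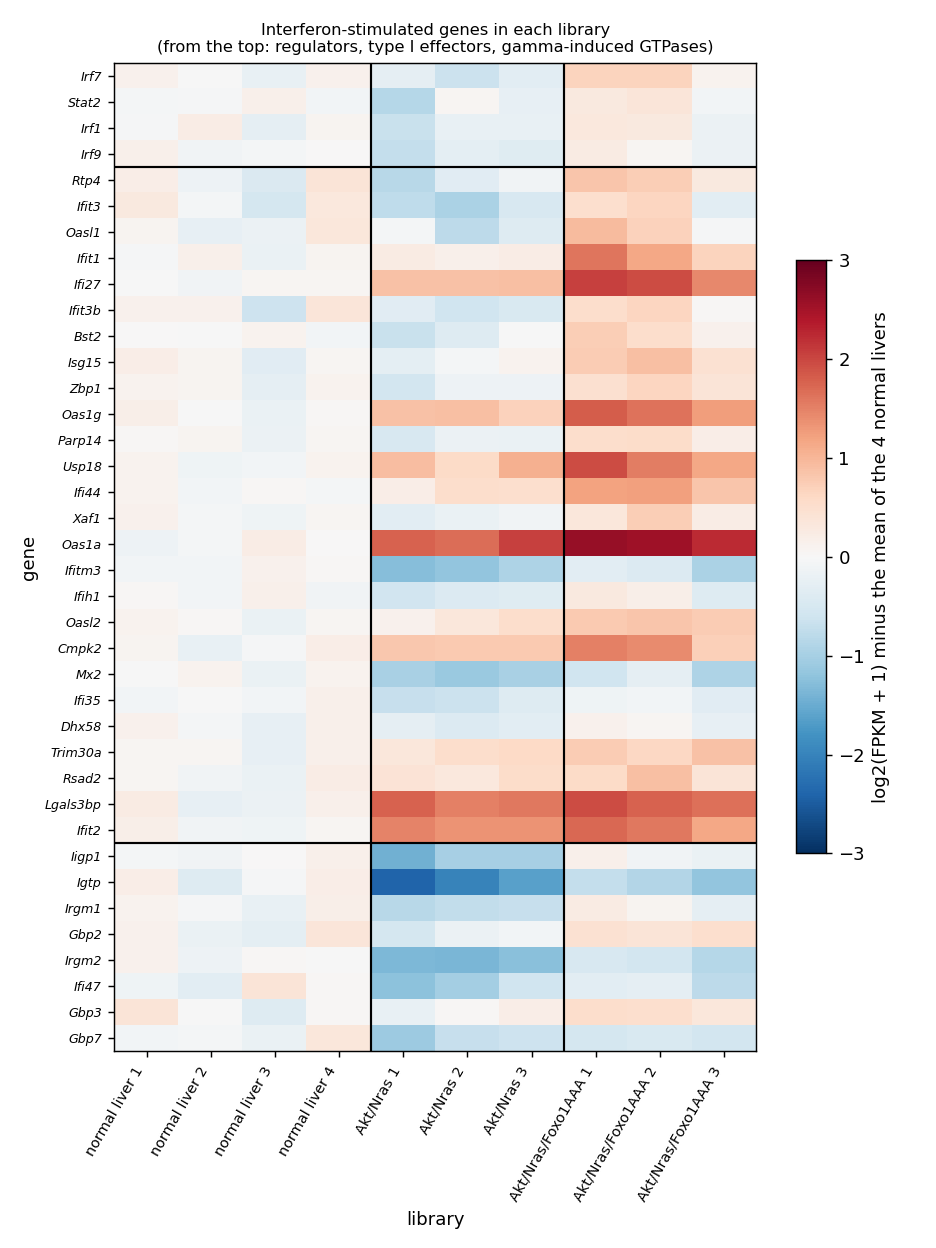
Colour gives the level as log2(FPKM + 1) minus the mean of the 4 normal livers for the 38 tested genes (rows, from the top regulators, type I effectors and gamma-induced GTPases) in each of the 10 libraries (columns). The third Akt/Nras/Foxo1AAA library is the lowest of its group in 36 of 38 genes, and the block of GTPases is bluest in the Akt/Nras tumours, where with equal totals 2 rather than 6 of 8 were called lower.

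The gamma-induced GTPases attack the vacuoles of intracellular parasites and bacteria, and 8 of the 12 could be tested. Iigp1, an effector GTPase, had the largest difference between tumours of the 38 genes on the log2(FPKM + 1) scale, while by ratio of means the largest was that of Ifit3b, at 4-fold. Iigp1 read 50.6, 48.4, 53.3 and 58 FPKM in the normal livers, 18.8, 25.6 and 25.6 in the Akt/Nras tumours and 58.7, 48.8 and 45.8 in the Akt/Nras/Foxo1AAA tumours. The Akt/Nras libraries were far below the rest, whereas normal livers and Akt/Nras/Foxo1AAA tumours overlapped. Iigp1 was 2.25-fold lower in Akt/Nras tumours than in normal liver (log2 -1.15 ± 0.13, adjusted p = 1.58e-05), a call that was lost with equal totals. Its Akt/Nras/Foxo1AAA mean was 2.19 times the Akt/Nras mean (1.10 ± 0.14, adjusted p = 0.00327). Its value in Akt/Nras/Foxo1AAA tumours against normal liver was -0.04 ± 0.13 (adjusted p = 0.78) and turned to 0.66 with equal totals.

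Igtp, Irgm1 and Irgm2 are the regulatory members that keep the effector GTPases inactive on the cell's own membranes. Igtp was at 44.9, 29.7, 37.9 and 45 FPKM in normal liver, at 6.5, 8.93 and 11.8 in Akt/Nras tumours and at 23.3, 20.5 and 16.7 in Akt/Nras/Foxo1AAA tumours. The groups were apart, with normal liver highest and Akt/Nras tumours lowest. Igtp was 4.33-fold lower than normal liver in Akt/Nras and 1.95-fold lower in Akt/Nras/Foxo1AAA tumours (adjusted p = 6.29e-06 and 0.00208). With equal totals the second of these calls was lost. The tumours differed by 1.09 ± 0.21 (adjusted p = 0.0118). The Irgm2 levels were 17.3, 14, 16.1 and 15.6 FPKM in normal liver, 5.57, 5.46 and 5.99 in Akt/Nras and 11, 10.4 and 8.18 in Akt/Nras/Foxo1AAA tumours. Irgm2 had the same order without overlap, with -1.32 ± 0.10 and -0.63 ± 0.10 against normal liver (adjusted p = 1.19e-06 and 0.00037) and 0.69 ± 0.11 (adjusted p = 0.00666) between tumours. With equal totals the fall of Irgm2 in Akt/Nras/Foxo1AAA tumours turned to 0.04. Igtp and Irgm2 overlap by 7974 bases on the same strand in the deposited coordinates, and 11.8% of the 50-base stretches of Igtp occur in Irgm2, so the split of reads between them is uncertain. Irgm1 read 9.05, 8.19, 7.01 and 9.59 FPKM in the normal livers, 4.28, 4.64 and 4.85 in the Akt/Nras tumours and 10.1, 8.95 and 6.78 in the Akt/Nras/Foxo1AAA tumours. Irgm1 was below every other library in the Akt/Nras tumours (-0.75 ± 0.13 against normal liver, adjusted p = 0.000426, turning to 0.08 with equal totals), and the tumours differed by 0.77 ± 0.14 (adjusted p = 0.01).

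The Ifi47 levels were 9.84, 8.52, 14.3 and 11.2 FPKM in normal liver, 3.98, 4.82 and 6.72 in Akt/Nras and 8.38, 8.71 and 5.86 in Akt/Nras/Foxo1AAA tumours. Ifi47, another immunity-related GTPase, was below every normal liver in Akt/Nras tumours (-0.95 ± 0.20, adjusted p = 0.00126), a call that was lost with equal totals. The tumour groups overlapped (0.49 ± 0.21, adjusted p = 0.148). Gbp2, Gbp3 and Gbp7 encode guanylate-binding proteins, large GTPases that coat pathogen vacuoles. Gbp2 was at 2.27, 1.59, 1.45 and 2.84 FPKM in normal liver, at 1.06, 1.65 and 1.85 in Akt/Nras tumours and at 3.11, 2.91 and 3.23 in Akt/Nras/Foxo1AAA tumours. Gbp2 was highest in all Akt/Nras/Foxo1AAA libraries, and the tumours differed by 0.71 ± 0.18 (adjusted p = 0.0288). Gbp3 read 1.75, 1.09, 0.608 and 1.15 FPKM in the normal livers, 0.801, 1.15 and 1.44 in the Akt/Nras tumours and 2.04, 2 and 1.67 in the Akt/Nras/Foxo1AAA tumours. Gbp3 did not overlap between tumours but was not called (0.46 ± 0.18, adjusted p = 0.13), while it was higher than normal liver in Akt/Nras/Foxo1AAA tumours by 0.46 ± 0.17 (adjusted p = 0.0375). Gbp7 had means of 2.81, 1.19 and 1.64 FPKM in the 3 groups and was below normal liver in both tumours (adjusted p = 0.000659 and 0.0109). Both of these calls were lost with equal totals. The other 4 did not pass the minimum: Gbp5 at 0.0458 to 0.412 FPKM, Gbp6 at 0.0143 to 0.329, Tgtp1 at 0.209 to 1.01 and Tgtp2 at 0.166 to 0.727. Of these Gbp6 was higher in every Akt/Nras/Foxo1AAA library than in any other, with at most 35 reads in any library. Its reads are uncertain, since 70.7% of the 50-base stretches of Gbp6 also occur in other genes. For Tgtp1, 79.4% of such stretches occur in Tgtp2.

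Gbp2 and Gbp3 were the 2 GTPases called higher in Akt/Nras/Foxo1AAA tumours than in normal liver. That count fell to 0 when the second or the third normal liver, or the first or the second Akt/Nras/Foxo1AAA tumour, was left out, and to 1 when the fourth normal liver or the third Akt/Nras/Foxo1AAA tumour was left out. The 6 lower GTPase calls in Akt/Nras tumours against normal liver stood in each fit that left out 1 library, and with equal totals they dropped to 2.

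**Figure D4:**
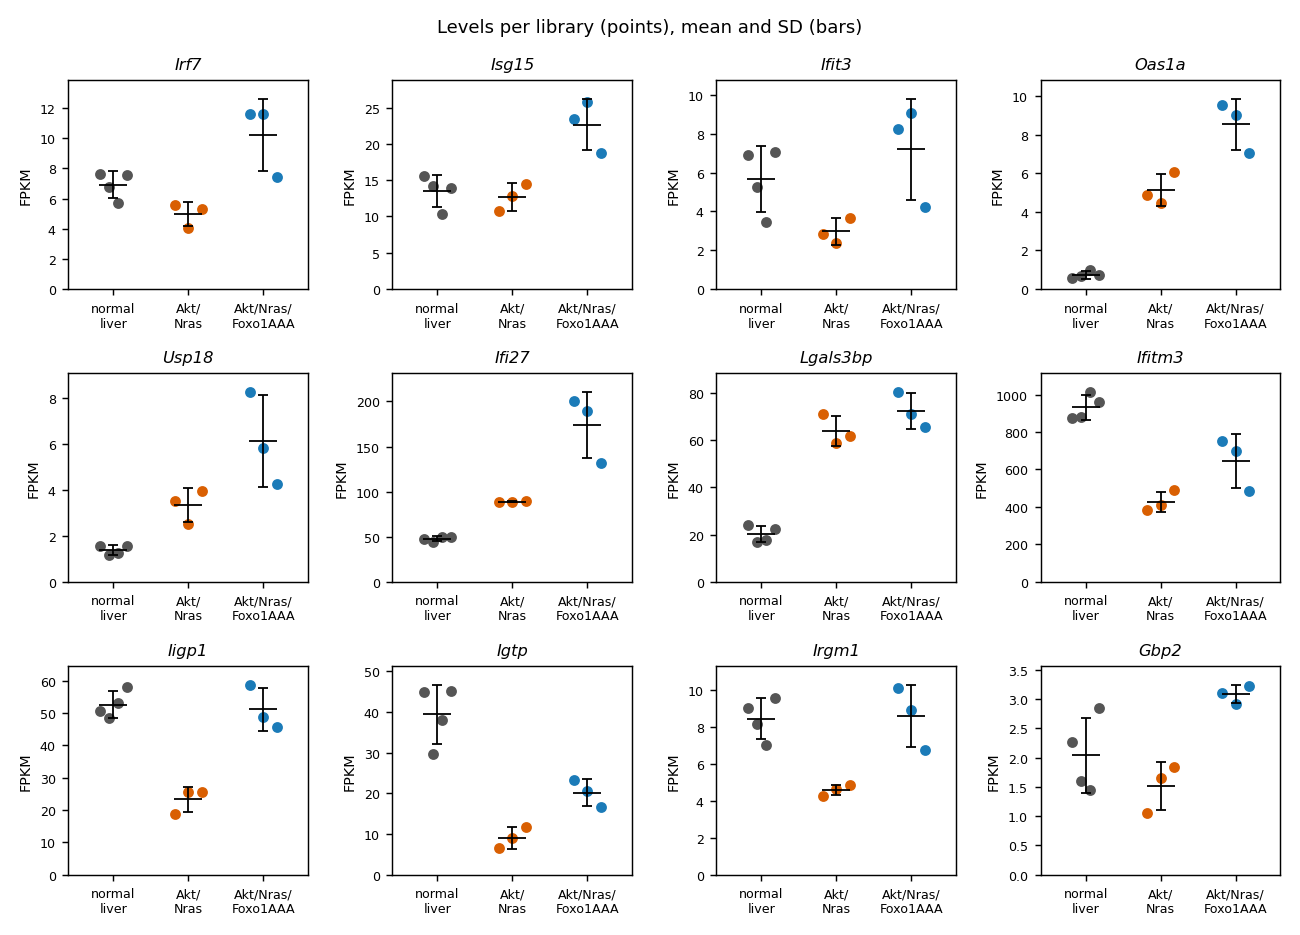
FPKM per library (points) with the mean and SD of each group (bars) for 12 interferon-stimulated genes, in 4 normal livers (grey), 3 Akt/Nras tumours (orange) and 3 Akt/Nras/Foxo1AAA tumours (blue). Iigp1 and Irgm1 dip in the orange group and reach normal liver in the blue group in the authors' scaling. With equal totals, in Akt/Nras tumours against normal liver, the Iigp1 call was lost and the Irgm1 value turned to 0.08. Oas1a, Usp18 and Ifi27 climb across the 3 groups.

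Of 21 interferon ligand genes in the table, 18 had 0 reads in every library, and the highest count of a ligand in any library was 3 reads. A count of 3 reads corresponds to at most 0.607 FPKM for these genes, so ligand transcripts were not detectable above that level at this depth. Receptor transcripts were present. Ifngr1 read 7.8, 7.99, 6.46 and 8.37 FPKM in the normal livers, 43.6, 29.3 and 33.1 in the Akt/Nras tumours and 22.8, 21.7 and 25.6 in the Akt/Nras/Foxo1AAA tumours. Ifngr1, the ligand-binding chain of the interferon gamma receptor, was higher in every tumour than in any normal liver (4.62-fold and 3.05-fold, adjusted p = 3.03e-07 and 4.69e-06), and lower in Akt/Nras/Foxo1AAA than in Akt/Nras tumours without overlap (-0.56 ± 0.14, adjusted p = 0.0313). The Ifngr2 levels were 5.89, 4.23, 5.55 and 5.81 FPKM in normal liver, 13, 13.4 and 14.8 in Akt/Nras and 10.6, 14.2 and 13.1 in Akt/Nras/Foxo1AAA tumours. The signalling chain Ifngr2 rose in both tumour groups (1.22 ± 0.12 and 1.10 ± 0.12, adjusted p = 6.99e-06 and 2.15e-05) and overlapped between them.

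The type I receptor chains are Ifnar1 and Ifnar2. Ifnar1 was at 7.69, 7.83, 8.74 and 8.75 FPKM in normal liver, at 10.4, 10.5 and 10 in Akt/Nras tumours and at 9.42, 9.08 and 10.6 in Akt/Nras/Foxo1AAA tumours. Ifnar1 was above normal liver in all tumours, by 0.29 ± 0.08 and 0.21 ± 0.08 (adjusted p = 0.00688 and 0.038). The Ifnar2 levels were 16.5, 19, 15.8 and 15.7 FPKM in normal liver, 10.9, 12.4 and 13 in Akt/Nras and 13.6, 14.2 and 15 in Akt/Nras/Foxo1AAA tumours. Ifnar2 was below every normal liver in all tumours, called only in Akt/Nras tumours (-0.44 ± 0.09, adjusted p = 0.00134, against 0.0586 in Akt/Nras/Foxo1AAA tumours), and with equal totals the first value turned to 0.47. Neither chain was called between tumours (adjusted p = 0.557 and 0.158). The interferon lambda receptor chain Ifnlr1 was at 0 to 0.0267 FPKM in normal liver, 1.51, 1.12 and 0.819 in Akt/Nras and 1.13, 1.35 and 0.67 in Akt/Nras/Foxo1AAA tumours, and its partner Il10rb at 1.21 to 1.84, 3.7, 3.38 and 4.34, and 2.88, 4.17 and 3.73. Both were called higher in the 2 tumour groups against normal liver and in neither direction between them.

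**Figure D5:**
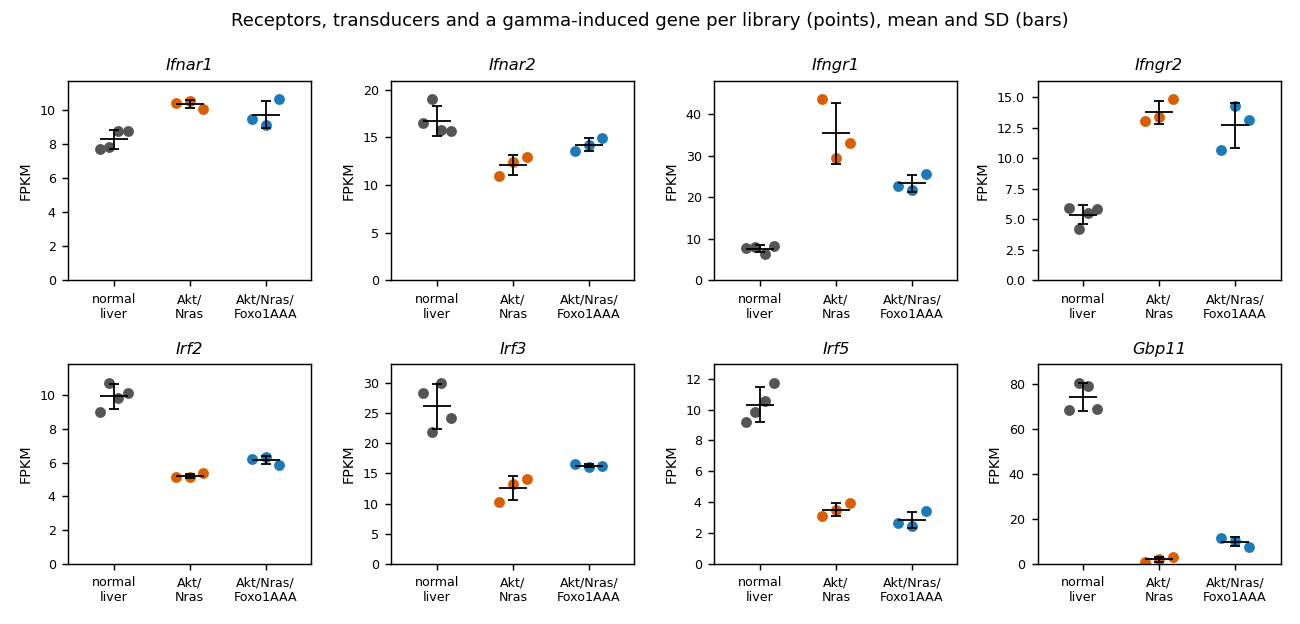
FPKM per library (points) with the mean and SD of each group (bars) for 4 receptor chains, 3 transcription factors of the pathway and the gamma-induced gene Gbp11, in the 3 groups. Ifngr1 and Ifngr2 are higher and Irf5 and Gbp11 lower in all tumours than in any normal liver.

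Between the tumour groups limma called 0 of 7 JAK and IRF genes outside the 45. At an unadjusted p under 0.05, 3 were higher and 1 lower, where 1979 and 1627 of all 12439 tested genes were. With equal totals limma called 2 of the 7 lower, as it did 3241 of all 12439 tested genes. The Irf3 levels were 28.4, 22, 30.1 and 24.1 FPKM in normal liver, 10.3, 13.3 and 14.1 in Akt/Nras and 16.5, 16.1 and 16.2 in Akt/Nras/Foxo1AAA tumours. Irf3, which starts interferon production after nucleic acid sensing, was lower than normal liver in all tumours (2.08-fold in Akt/Nras tumours, adjusted p = 4.17e-05, and -0.64 ± 0.13 on the log2 scale in Akt/Nras/Foxo1AAA tumours, adjusted p = 0.00121), but with equal totals both calls were lost, at log2 -0.08 and 0.05. Irf5, a macrophage-associated factor, fell to 3.12, 3.49 and 3.92 and 2.62, 2.47 and 3.42 FPKM from 9.17, 9.82, 10.6 and 11.8 in normal liver (adjusted p = 2.07e-06 and 1.11e-06). Irf2, often a repressor of these genes, was at 8.98, 10.8, 9.86 and 10.2 FPKM in normal liver, 5.14, 5.16 and 5.37 in Akt/Nras and 6.23, 6.34 and 5.89 in Akt/Nras/Foxo1AAA tumours (log2 -0.81 and -0.61, adjusted p = 3.46e-06 and 4.05e-05), which turned to 0.04 and 0.03 with equal totals. Irf8, a factor of myeloid cells, rose to 2.24, 2.65 and 3.47 and 2.16, 3.64 and 4.71 from 1.33, 1.14, 1.32 and 1.54 (adjusted p = 0.00661 and 0.00138). Jak1 and Jak2 rose in both groups (0.45 and 0.43, 0.48 and 0.27), and Tyk2 was not called (-0.24 and 0.02).

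Of 5 tested negative regulators, 3 rose against normal liver in Akt/Nras tumours and 2 in Akt/Nras/Foxo1AAA tumours, and between the tumours limma called 0, with 0 higher and 1 lower at an unadjusted p under 0.05. With equal totals 5 of 5 were called higher in each tumour group, and 3 were called lower between the tumours. Over all tested genes 31.1% and 26.8% were called higher against normal liver in the authors' scaling. With equal totals 8608 and 7580 of all 12439 were called higher, and 3241 were called lower between the tumours. In the authors' scaling 1979 were higher and 1627 lower between the tumours at limma's unadjusted p under 0.05. Socs3, a feedback inhibitor of JAK kinases, was at 4.46, 7.02, 4.52 and 5.38 FPKM in normal liver, 15.5, 9.11 and 11.8 in Akt/Nras and 9.18, 10.3 and 10.3 in Akt/Nras/Foxo1AAA tumours. The phosphatase Ptpn11 rose in both groups (0.55 and 0.49) and Ptpn2 in Akt/Nras tumours (0.47, adjusted p = 0.00215). Nucleic acid sensing genes gave 4 higher and 2 lower calls of 11 in Akt/Nras tumours and 6 and 2 in Akt/Nras/Foxo1AAA tumours, and with equal totals 10 higher and 0 lower in each. The lower share over all tested genes was 37.9% and 36.5% in the authors' scaling. With equal totals 1713 and 1681 of all 12439 were called lower. Sting1 read 0.561, 0.895, 1.11 and 0.58 FPKM in the normal livers, 16.1, 15.8 and 15.9 in the Akt/Nras tumours and 8.74, 8.31 and 13.3 in the Akt/Nras/Foxo1AAA tumours. Sting1, the adaptor of cytosolic DNA sensing, was far above normal liver in every tumour (adjusted p = 4.31e-08 and 3.14e-07) and lower in Akt/Nras/Foxo1AAA than in Akt/Nras tumours (-0.64 ± 0.17, adjusted p = 0.0343). The Mavs levels were 30.6, 33.3, 39.5 and 32 FPKM in normal liver, 13.4, 18.3 and 15.9 in Akt/Nras and 27.9, 21.4 and 22.4 in Akt/Nras/Foxo1AAA tumours. Mavs, the adaptor of RNA sensing, ran the opposite way, below normal liver in all tumours (log2 -1.05 and -0.49, adjusted p = 3.72e-05 and 0.00768) and higher in Akt/Nras/Foxo1AAA than in Akt/Nras tumours (0.56 ± 0.14, adjusted p = 0.0289), but with equal totals the 3 Mavs calls were lost, at -0.12, 0.21 and 0.33. Traf3 and Tlr3 rose in both tumour groups, by 1.42 and 1.45 and by 0.71 and 0.78, whereas Samhd1 fell in Akt/Nras tumours (-0.40) and Tbk1 in Akt/Nras/Foxo1AAA tumours (-0.26), which turned to 0.29 and 0.38 with equal totals.

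A further list held 42 type I response genes, of which 34 could be tested. Between the tumours limma called 7 of these higher (20.6%, where 7.93% of all tested genes were) and 0 lower. At an unadjusted p under 0.05, 15 were higher and 2 lower, where 1979 and 1627 of all 12439 tested genes were. With equal totals 4 were called higher and 3 lower, where 656 and 3241 of all tested genes were. The median log2 difference of the 34 genes was 0.25. The 7 included Slfn2, a regulator of immune cell quiescence, Ube2l6, the enzyme that conjugates ISG15, and Dtx3l with its partner Parp9, which join ubiquitin and ADP-ribose transfer. Slfn2 was at 1.59, 1.14, 1.7 and 3.07 FPKM in normal liver, at 9.13, 6.25 and 8.63 in Akt/Nras tumours and at 16.8, 14.2 and 13.5 in Akt/Nras/Foxo1AAA tumours. The 3 groups of Slfn2 did not overlap, and the tumours differed by 0.82 ± 0.21 (adjusted p = 0.0342). Ube2l6 read 74.1, 68.4, 61.4 and 80 FPKM in the normal livers, 32.7, 33.7 and 41 in the Akt/Nras tumours and 67.2, 59.5 and 55 in the Akt/Nras/Foxo1AAA tumours. Ube2l6 was lowest in each Akt/Nras library, with 0.74 ± 0.12 (adjusted p = 0.00766) between tumours. Dtx3l and Parp9 differed by 0.64 ± 0.15 (adjusted p = 0.0211) and 0.55 ± 0.14 (adjusted p = 0.0349), and the call of Parp9 was lost with equal totals (adjusted p = 0.087). Against normal liver the list gave 10 higher and 10 lower calls in Akt/Nras tumours (29.4% each, near the 31.1% and 37.9% of all tested genes). In Akt/Nras/Foxo1AAA tumours it gave 12 and 4 (35.3% and 11.8%, where all tested genes gave 26.8% and 36.5%). With equal totals it gave 28 and 0 in each, where all 12439 tested genes gave 8608 and 1713, and 7580 and 1681. Plscr1, a phospholipid scramblase, had the largest rise in Akt/Nras tumours (6.8-fold, adjusted p = 6.95e-08), Slfn9 and Ifi27l2a reached 1.40 in Akt/Nras and 1.65 in Akt/Nras/Foxo1AAA tumours, and Trafd1 had the largest fall in the latter (-0.51), which turned to 0.15 with equal totals.

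Of 11 tested gamma-induced genes outside the GTPases listed above, limma called 1 higher between the tumours and 0 lower. That is 9.09% higher, near the 7.93% of all tested genes. At an unadjusted p under 0.05, 7 were higher and 0 lower, where 1979 and 1627 of all 12439 tested genes were. With equal totals 2 were higher at that threshold. All 11 log2 differences were positive, with a median of 0.42 against -0.01 over all tested genes. Gbp11 read 68.4, 80.1, 79.1 and 68.8 FPKM in the normal livers, 0.926, 1.99 and 3.1 in the Akt/Nras tumours and 11.4, 10.3 and 7.52 in the Akt/Nras/Foxo1AAA tumours. Gbp11, a further guanylate-binding gene, was 37-fold lower than normal liver in Akt/Nras and 7.61-fold lower in Akt/Nras/Foxo1AAA tumours (adjusted p = 4.13e-08 and 1.96e-06), with no overlap among the groups and 1.89 ± 0.24 (adjusted p = 0.00327) between tumours. The Gbp9 levels were 0.974, 0.733, 0.485 and 0.834 FPKM in normal liver, 3.96, 4.93 and 4.94 in Akt/Nras and 5.21, 6.69 and 6.59 in Akt/Nras/Foxo1AAA tumours. Gbp9 went the other way against normal liver, 6.1-fold and 8.15-fold higher (adjusted p = 7.13e-07 and 3.74e-07). Gbp2b fell in both tumour groups (-1.04 and -0.81), as did the immunoproteasome subunit Psmb10 (-0.99 and -0.71), but with equal totals Gbp2b was called only in Akt/Nras tumours (-0.68, adjusted p = 0.0249, against 0.109) and Psmb10 in neither (adjusted p = 0.71 and 0.984). Tap1, the peptide transporter of antigen presentation, rose in both (0.42 and 0.84) and the chemokine Cxcl9 in Akt/Nras/Foxo1AAA tumours (0.52, adjusted p = 0.0438).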

How the data were processed

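RNA was measured in 10 mouse liver samples. The authors deposited FPKM values per gene in 1 table, and the submitters' processing notes name the build GRCm38 and FastQC 0.11.7, while no source used here names the aligner or counter. Per the labels' protocols, libraries followed polyA capture or rRNA removal, without saying which. Genes with at least 1 FPKM in 3 or more libraries (12439) were tested with limma 3.58.1 in R 4.3.3 on log2(FPKM + 1), with all 3 groups in 1 fit and p-values adjusted over those genes by the Benjamini-Hochberg method at 0.05. A log2 change on this scale understates the change of low genes, while a fold is a ratio of mean FPKM.

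The deposited FPKM values are whole multiples of what 1 read is worth (99.95% of values above 0 were whole within 0.02 reads), which gave depths of 13.6 to 21.3 M reads per library. No pair of libraries held the same values. The columns of values that belong to no sample numbered 0. The test was tried on simulated data first.

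Members and lists were chosen with earlier results of these data known. Values in every library are given for regulators, genes called between the tumour groups, the largest changes of each class against normal liver and the most abundant, and of other lists for receptors, JAK and IRF genes and the largest called changes. 1 gene of the pathway lists is left out and not reported here. Promoters come from RefSeq (GRCm38.p6). Alternatives changed the pseudocount, minimum, scaling, variance trend, block, groups fitted and libraries.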

Additional observations from a re-analysis of the deposited data

Results flagged for a closer look

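Among the groups of 4 libraries, which here are the normal livers only, the third normal liver stood apart from the other 3 for 2 genes. Stat2 was highest there, at 12.2 FPKM, while the others were within 10.2 to 10.5. Zbp1 was lowest there, at 1.39 FPKM, while the others were within 2.05 to 2.12. A gap of this size relative to the range arises by chance in about 1 group in 20, and 38 genes were looked at.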

How the results depend on the processing

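Scaling had the widest effect against normal liver. With equal totals Akt/Nras tumours had 22 genes called higher and 3 lower (effectors 17 and 1, GTPases 1 and 2). Akt/Nras/Foxo1AAA tumours had 32 and 0 (effectors lower 0, GTPases 4 higher and 0 lower). Over all 12439 tested genes equal totals gave 8608 higher and 1713 lower in Akt/Nras and 7580 and 1681 in Akt/Nras/Foxo1AAA tumours. With totals taken without the 50 most abundant genes, lower calls were 5 in Akt/Nras tumours (effectors 2, GTPases 3). They were 0 in Akt/Nras/Foxo1AAA tumours (effectors 0, GTPases 0), which had 32 higher (GTPases 4). Over all tested genes this scaling gave 2195 lower in Akt/Nras, and 6844 higher and 1916 lower in Akt/Nras/Foxo1AAA tumours. With a minimum of 5 FPKM, which leaves fewer genes, 3 were higher in Akt/Nras (effectors 3 higher, 3 lower), 7 higher and 3 lower in Akt/Nras/Foxo1AAA tumours (effectors 6 and 1, GTPases 0 higher), and 14 higher between tumours (effectors 8). Of all 7112 genes tested with that minimum, 1969 were higher and 3403 lower in Akt/Nras tumours. In Akt/Nras/Foxo1AAA tumours 1783 were higher and 3244 lower, and between tumours 1049 were higher. With no minimum, which also tests the genes below it, there were 3 lower effectors in Akt/Nras tumours and 14 of the 45 genes higher between tumours (effectors 9), 13 of them among the 38 (effectors 8). Of all 27446 genes tested then, 5286 were lower in Akt/Nras tumours and 595 higher between tumours. Fitted on the 6 tumour libraries alone, limma called 0 between tumours (effectors 0, GTPases 0). The cause of these differences was not tested.

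Same-numbered libraries correlated from -0.17 to 0.11 after removal of group means, and the labels do not pair them. A replicate block left 10 genes called between tumours (effectors 6, GTPases 3), where 332 of all 12439 tested genes were called higher. It left 3 lower effectors in Akt/Nras tumours, where 4391 of all tested genes were lower. In Akt/Nras/Foxo1AAA tumours it left 1 lower effector and 1 higher GTPase, where 4201 of all tested genes were lower and 3037 higher.

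Leaving out 1 library at a time gave 8 to 11 higher and 11 to 18 lower in Akt/Nras tumours (effectors 8 to 11 and 4 to 9). It gave 15 to 21 higher and 5 to 6 lower in Akt/Nras/Foxo1AAA tumours (effectors 15 to 19 higher, GTPases 0 to 2 higher), and 8 to 27 higher between tumours (effectors 3 to 20, GTPases 3 to 5). Over all 12439 tested genes these fits gave 3596 to 3790 higher and 4411 to 4561 lower in Akt/Nras tumours. They gave 3018 to 3264 higher and 4120 to 4382 lower in Akt/Nras/Foxo1AAA tumours, and 402 to 1247 higher between tumours.

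With equal totals positive log2 changes went from 13 to 30 of 38 in Akt/Nras and from 29 to 35 in Akt/Nras/Foxo1AAA tumours against normal liver. Among genes called before or after rescaling, signs turned as follows, with equal totals and, where given, then without the 50 most abundant genes. In Akt/Nras tumours against normal liver: Irf1 0.47, Irf7 0.42 and 0.20, Irf9 0.34 and 0.13, Stat2 0.53, Isg15 0.82 and 0.58, Ifit3 0.04, Ifi35 0.35 and 0.10, Ifih1 0.26 and 0.07, Dhx58 0.40 and 0.20, Bst2 0.61, Parp14 0.44, Irgm1 0.08. In Akt/Nras/Foxo1AAA tumours: Ifi35 0.51 and 0.40, Dhx58 0.53 and 0.44, Ifitm3 0.17 and 0.05, Iigp1 0.66 and 0.54, Irgm2 0.04. Depth limits genes under 1 FPKM, which were not tested.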
